A study of Mus musculus with 18 samples.

Results

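The 10 genes Tnfaip3, Tnip1, Cxcl1, Csf1, Icam1, Ier3, Cflar, Birc2, Birc3 and Traf1 are classical target genes of NF-κB, and they were followed from pluripotency into early differentiation. They were taken by symbol from the 55487 genes of the count table, where each symbol matched 1 gene. RNA was sequenced from ES-E14TG2a cells, a line of mouse embryonic stem cells (mESCs) grown in serum with Leukemia Inhibitory Factor (LIF), the cytokine that keeps them undifferentiated, and from embryoid bodies (EBs), the aggregates in which mESCs differentiate once LIF is withdrawn, at 48 hr and 96 hr. Each stage has 6 libraries, 3 from IκBα-WT clones (IkappBalpha+/+) and 3 from IκBα-KO clones (IkappBalpha-/-), in which both CRISPR guides cut the first exon of Nfkbia, the gene of IκBα. Every library is 1 edited or unedited clone, and the same clones may recur at the 3 stages. The mESC libraries are named by genotype and replicate number, here called clones 1 to 3. The EB libraries are named by a code (D4, E14, E2, E3, H7 or H9), here taken as a clone code, whose genotype is not given in the sources used here. IκBα-KO was therefore compared with IκBα-WT in mESCs alone, and the EBs were compared as stages of 6 libraries that hold 3 clones of each genotype.

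NF-κB is a family of dimeric transcription factors that IκB proteins hold inactive. Signals from receptors such as those for TNF activate the IKK kinases, which mark IκBα for degradation, and the freed dimers enter the nucleus and bind κB sites in DNA. Several targets close the loop by restraining the same signal: Nfkbia itself, Tnfaip3, which encodes the ubiquitin-editing enzyme A20, and Tnip1, which encodes a partner of A20. Others encode secreted factors (Cxcl1 and Csf1), an adhesion molecule (Icam1), or regulators of cell death (Cflar, Birc2, Birc3 and Traf1). mESCs are known for a low NF-κB activity that increases as they differentiate.

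The promoters of all 10 genes were searched for the κB consensus, the motif to which NF-κB dimers bind, on both strands of the RefSeq promoter sequences of GRCm38.p6 (250 bases before to 50 bases after a transcription start). The pattern was GGGRNNYYCC, where R is A or G, Y is C or T, and N is any base. Sites that depart from it or lie outside the windows were not counted. A match was present for Tnfaip3, Tnip1, Cxcl1, Csf1 and Ier3, and there was none in these windows for Icam1, Cflar, Birc2, Birc3 and Traf1. Of 27025 genes with a promoter sequence, 9.55% have a match in at least 1 promoter, as do 8.46% of the 32851 promoters. The matches are shown with the matching bases in capitals, overlapping matches joined, and each sequence written 5′ to 3′ on the strand of its gene.
Tnfaip3, chr10:19015516-19015545, minus strand: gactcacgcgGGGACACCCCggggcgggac
Tnfaip3, chr10:19015403-19015432, minus strand: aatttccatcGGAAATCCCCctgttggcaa
Tnip1, chr11:54962977-54963008, minus strand: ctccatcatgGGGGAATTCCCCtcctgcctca
Cxcl1, chr5:90891164-90891194, plus strand: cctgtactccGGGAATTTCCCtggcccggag
Csf1, chr3:107760604-107760633, minus strand: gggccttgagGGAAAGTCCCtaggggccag
Ier3, chr17:35821611-35821640, plus strand: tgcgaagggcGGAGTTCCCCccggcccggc
Nfkbia, chr12:55492657-55492686, minus strand: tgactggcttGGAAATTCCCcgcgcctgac
All of these matches lie before a RefSeq transcription start, the second of Tnfaip3 from 12 to 3 bases before it and that of Csf1 from 154 to 145 bases before it. RefSeq gives 2 promoters for Tnfaip3, of which 1 holds both matches, and these lie inside the longer span that the GENCODE annotation gives the gene. A match describes these letters and does not show that a factor was bound in these cells.

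Depth was similar across the stages, with 29423089 to 40904247 counts on genes in the mESC libraries, 28287582 to 33169091 in the EB 48 hr libraries and 30570857 to 36340056 in the EB 96 hr libraries. Levels are in CPM, that is, counts normalised to library depth with TMM scaling. Nfkbia, the targeted gene, was at 34.2, 35.1 and 25.3 CPM in IκBα-WT clones 1 to 3 and at 10.2, 9.44 and 10.1 CPM in IκBα-KO clones 1 to 3, with no overlap (log2 fold change -1.67, edgeR adjusted p = 0.00489, and 0.0633 without WT clone 2). It ranged from 7.31 to 14.9 CPM in the EBs at 48 hr and from 4.97 to 23.0 CPM at 96 hr. Pluripotency markers summed to 3421 to 4434 CPM in the mESC libraries and to 725 to 1738 CPM in the EBs at 96 hr, and streak and mesoderm markers summed to 6.30 to 11.4 CPM in mESCs and to 19.8 to 1077 CPM at 96 hr. In bulk RNA, fewer cells of a type and less RNA per cell cannot be told apart.

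Per kb of exon, the genes spanned a wide range of levels in IκBα-WT mESCs. Birc2 (14.7 ± 1.08 CPM per kb; SD, n = 3) stood at the top, above Icam1 (13.1 ± 0.177) and Tnip1 (12.7 ± 0.313), which did not differ from each other beyond their spread. Ier3 followed at 4.99 ± 1.21 CPM per kb and Birc3 at 1.30 ± 0.172. Cflar (0.618 ± 0.113), Tnfaip3 (0.412 ± 0.111) and Csf1 (0.339 ± 0.112) were next, and neighbours in this order lay within their spread of one another. Traf1 was at 0.108 ± 0.00950 and Cxcl1 at 0.0590 ± 0.00955 CPM per kb, the lowest level of the 10. At 96 hr the order was different, with Tnip1 (16.3 ± 1.98 CPM per kb; SD, n = 6) above Birc2 (11.97 ± 2.32) and Ier3 (8.82 ± 4.13), and Icam1 at 3.52 ± 1.15. Cflar, Birc3 and Tnfaip3 lay together at 1.14 ± 0.558, 1.09 ± 0.239 and 1.03 ± 0.348 CPM per kb and did not differ beyond their spread.

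**Figure D1:**
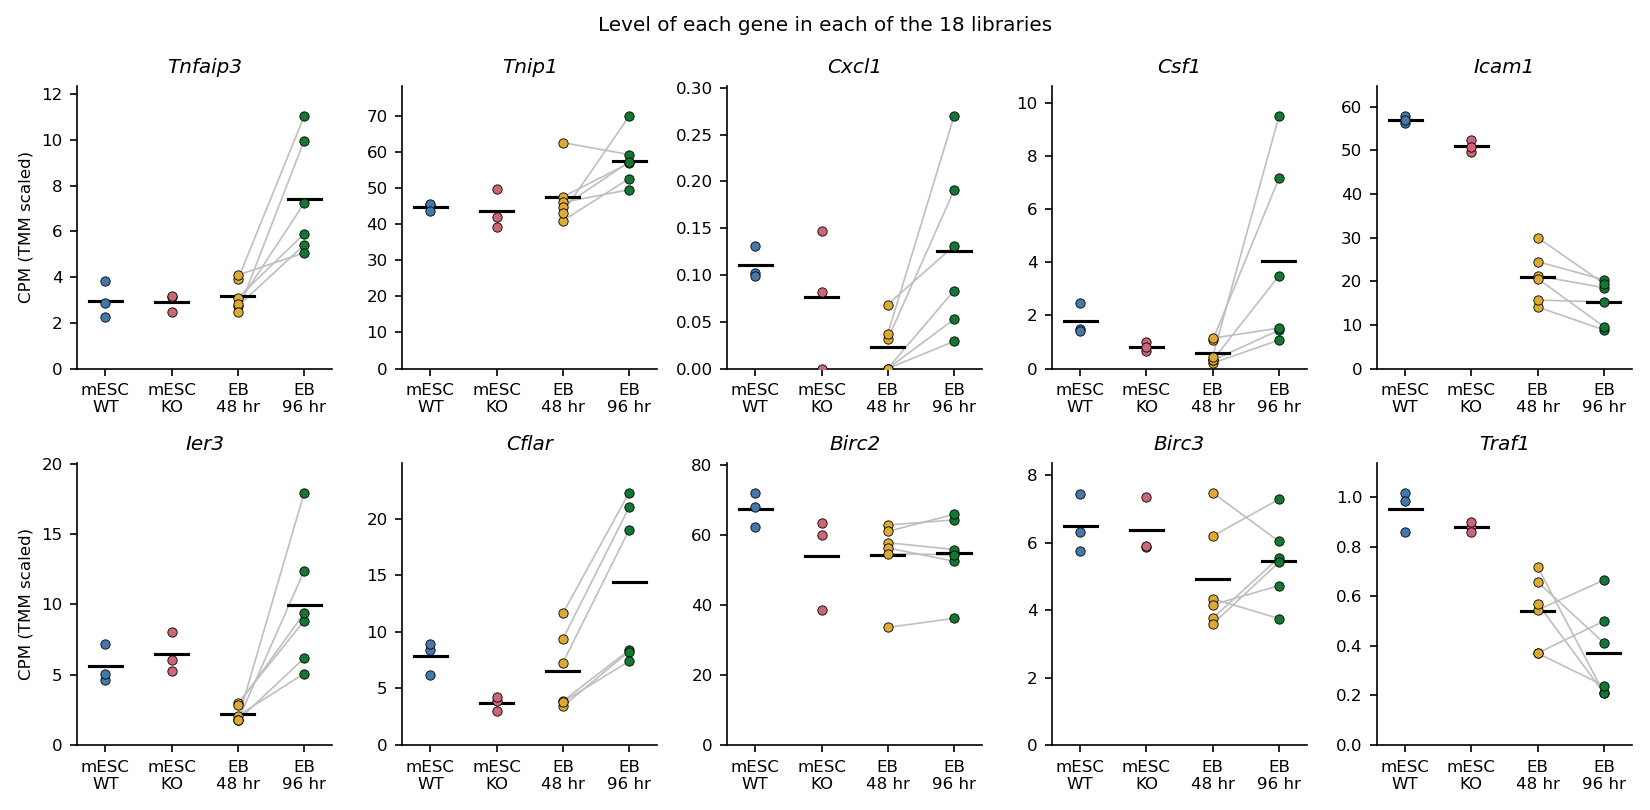
Level of each of the 10 genes in each library, in CPM after TMM scaling (vertical axes start at 0 and differ between panels). Points are libraries, black bars are group means, and grey lines join the EB libraries that carry the same clone code. Icam1 is lower in all 12 EB libraries than in all 6 mESC libraries, and Tnfaip3 and Ier3 are higher in all 6 EB libraries at 96 hr than in all 6 at 48 hr.

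The 10 genes were counted by their calls in each comparison, beside the share of all genes called, and the counts of the genotype and stage comparisons come from fits of different size. The call used edgeR's quasi-likelihood test with an adjusted p under 0.05, the adjustment covering every gene tested. Between IκBα-KO and IκBα-WT mESCs 1 gene was lower and 0 were higher, against 1.69% lower and 3.09% higher of the 21843 genes tested. From mESCs to EBs at 48 hr 3 genes were lower and 0 were higher, where 13% of the 25318 genes tested were lower and 14.9% higher. From 48 hr to 96 hr 6 genes were higher and 0 were lower, where 13.9% of all genes were higher and 13.8% lower. Over the whole interval from mESCs to EBs at 96 hr, 5 genes were higher and 2 lower, against 22.7% and 20.3% of all genes. The median log2 fold change of the 10 genes was -0.14, -0.57, 0.71 and 0.39 in these 4 comparisons, and that of all genes tested was 0.01, 0.00, -0.03 and -0.01. For the counts of 0, the same edgeR test at an unadjusted p under 0.05 gave 0 higher genes in the first comparison, 0 in the second and 1 lower gene (Icam1) in the third, and DESeq2 called 0 in each (it gave no adjusted p for Cxcl1 in the first). Between the genotypes, the genes other than Cflar and Csf1 had log2 fold changes from -0.46 (Cxcl1) to 0.19 (Ier3). The 3 stage comparisons share their libraries with one another and are not independent.

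**Figure D2:**
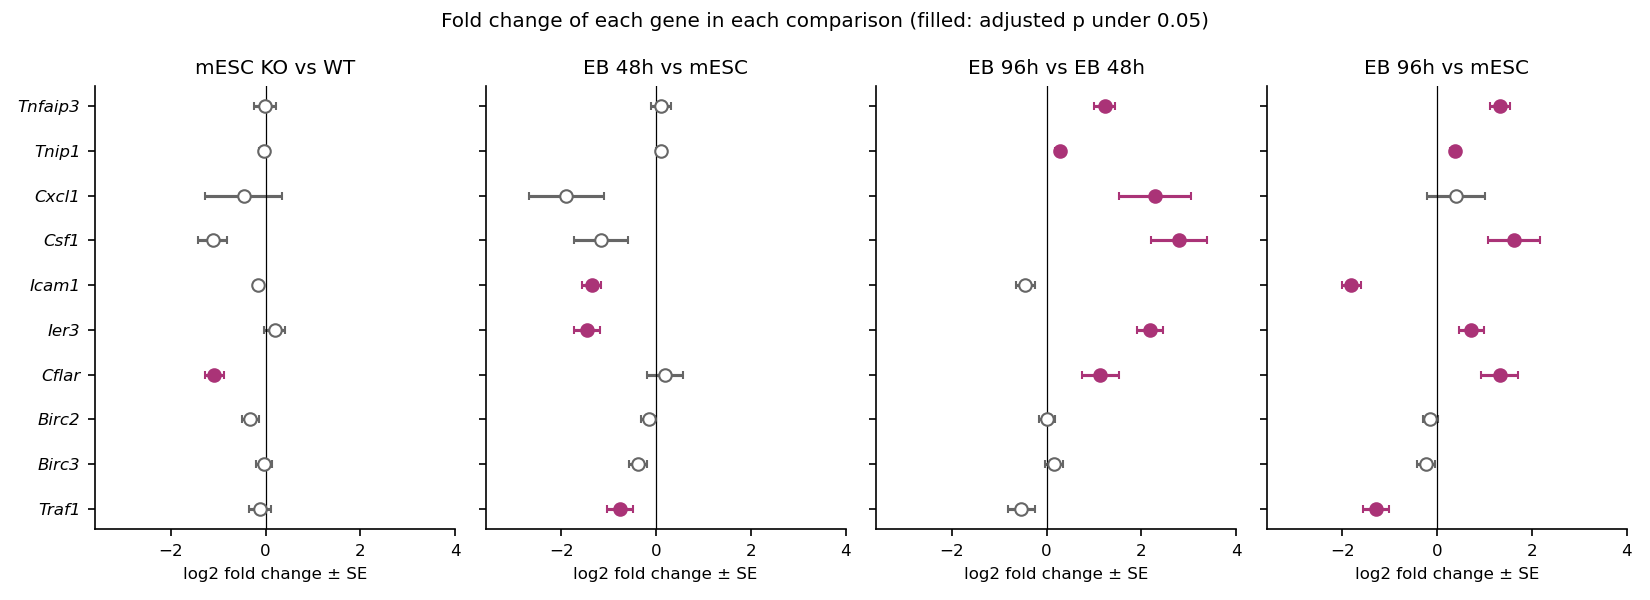
Log2 fold change of each gene in the 4 comparisons (horizontal axis) from edgeR, with the standard error as a bar; filled points have an adjusted p under 0.05. The third panel holds 6 filled points, all to the right of 0, and the first holds 1, that of Cflar.

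Of the feedback inhibitors, Tnfaip3 rose from 48 hr to 96 hr in every setting run, the call for Tnip1 depended on single libraries, and Nfkbia was not called (log2 fold change 0.33, standard error 0.40, edgeR adjusted p = 0.582, with 4 of 6 clone codes lower at 96 hr). Nfkbia is also the edited gene, so its stage changes mix edited and unedited clones. From mESCs to 48 hr it changed by -1.64 against the IκBα-WT mESCs (edgeR adjusted p = 0.00719). Against the IκBα-KO mESCs it changed by 0.04 (edgeR adjusted p = 0.957). Tnfaip3 (ENSMUSG00000019850, chromosome 10 of GRCm38, 19000910 to 19015657) had 66, 87 and 116 counts in IκBα-WT clones 1 to 3 and 85, 128 and 116 in IκBα-KO clones 1 to 3. It had 67 to 129 counts in the EBs at 48 hr (median 2.96 CPM) and 193 to 421 at 96 hr (median 6.56 CPM). All 6 libraries at 96 hr were above the other 12 libraries, and the mESCs of both genotypes overlapped the EBs at 48 hr. From 48 hr to 96 hr the log2 fold change was 1.22 (standard error 0.21, edgeR adjusted p = 0.000606), from mESCs to 96 hr 1.33 (standard error 0.21, edgeR adjusted p = 7.3e-05), and from mESCs to 48 hr 0.11 (standard error 0.21, edgeR adjusted p = 0.755). Both calls held with each library left out in turn. Between the genotypes in mESCs the log2 fold change was -0.02 (edgeR adjusted p = 0.974). Tnip1 (ENSMUSG00000020400, chromosome 11, 54910785 to 54962917), whose product works with A20, changed little in size. It was at 45.3, 45.8 and 43.6 CPM in IκBα-WT clones 1 to 3, 49.9, 42.0 and 39.1 CPM in IκBα-KO clones 1 to 3, 41 to 62.7 CPM at 48 hr (median 45.5) and 49.6 to 70.0 CPM at 96 hr (median 57.1). The EB stages overlapped each other through D4 at 48 hr, which was above all 6 mESC libraries and above 5 of the 6 libraries at 96 hr. The mESCs overlapped both EB stages, that at 96 hr through KO clone 1, which was above E3. Its log2 fold change was 0.38 from mESCs to 96 hr (standard error 0.10, edgeR adjusted p = 0.00512) and 0.28 from 48 hr to 96 hr (standard error 0.10, edgeR adjusted p = 0.0476). The latter call was lost, with an edgeR adjusted p of 0.0585 to 0.129, when any 1 of 9 libraries was left out (E14, E2, E3, H7 or H9 at 48 hr, and D4, E2, H7 or H9 at 96 hr).

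Both secreted factors were lowest at 48 hr by mean level and rose from there to 96 hr. Csf1 (ENSMUSG00000014599, chromosome 3, 107741048 to 107760469) encodes the growth factor of macrophages. It had 44, 43 and 75 counts in IκBα-WT clones 1 to 3 and 22, 41 and 30 in IκBα-KO clones 1 to 3, which in CPM did not overlap (1.41 to 2.48 against 0.646 to 1.01). At 48 hr D4, E14, E2, E3, H7 and H9 had 6, 31, 9, 36, 10 and 12 counts, and at 96 hr they had 37, 273, 52, 58, 110 and 317 counts. Every code was higher at 96 hr than at 48 hr, and E14 and H9 were the highest at 96 hr with 7.16 and 9.49 CPM. Csf1 changed by 2.79 on the log2 scale from 48 hr to 96 hr (standard error 0.59, edgeR adjusted p = 0.00232), a call that held with each library left out, and by -1.17 from mESCs to 48 hr (standard error 0.57, edgeR adjusted p = 0.144). From mESCs to 96 hr it was 1.62 (standard error 0.55, edgeR adjusted p = 0.0236), a call that was lost without KO clone 1, KO clone 3, E14 at 96 hr or H9 at 96 hr (edgeR adjusted p of 0.0508 to 0.0869) and with the 3 IκBα-WT libraries alone as the reference (log2 fold change 1.17, edgeR adjusted p = 0.232). Between the genotypes in mESCs it was -1.12 (standard error 0.30, edgeR adjusted p = 0.0760), and it was called without KO clone 2 (-1.28, edgeR adjusted p = 0.0140) and by DESeq2 (DESeq2 adjusted p = 0.0268). Cxcl1 (ENSMUSG00000029380, chromosome 5, 90891241 to 90893115), a chemokine that attracts neutrophils, was hardly detected, with 10 counts over the 3 IκBα-WT clones, 9 over the 3 IκBα-KO clones, 4 over the 6 libraries at 48 hr and 26 over the 6 at 96 hr. No library had more than 9 counts, so small differences were not detectable at this depth. Its log2 fold change was 2.29 between 48 hr and 96 hr (standard error 0.76, edgeR adjusted p = 0.0322), and it was no longer called without D4, E2 or E3 at 48 hr or without H7 or H9 at 96 hr (edgeR adjusted p of 0.0616 to 0.0867). From mESCs to 48 hr it was -1.89 (standard error 0.78, edgeR adjusted p = 0.0807), which passed without KO clone 1 (edgeR adjusted p = 0.0309) or without E14 at 48 hr (edgeR adjusted p = 0.0445).

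Icam1 (ENSMUSG00000037405, chromosome 9, 21015985 to 21028817), the adhesion molecule that binds leukocyte integrins, fell by the most from mESCs to 96 hr. It was at 56.2, 57.8 and 56.9 CPM in IκBα-WT clones 1 to 3 and at 49.5, 52.4 and 50.8 CPM in IκBα-KO clones 1 to 3. At 48 hr it ranged from 14.1 to 29.997 CPM (median 20.9) and at 96 hr from 8.86 to 20.3 CPM (median 16.9). Neither EB stage overlapped the mESCs, and the EB stages overlapped each other. Icam1 changed by -1.36 on the log2 scale from mESCs to 48 hr (standard error 0.21, edgeR adjusted p = 6.76e-05) and by -1.81 from mESCs to 96 hr (standard error 0.21, edgeR adjusted p = 2.19e-06), and both calls held with each library left out in turn. From 48 hr to 96 hr it was -0.45 (standard error 0.20, edgeR adjusted p = 0.103). Each of the 6 clone codes was lower at 96 hr than at 48 hr, by 0.04 (H9) to 1.10 (H7) in log2 CPM as shown by the plot of changes within codes, and with the clone code as a block the same difference was called (-0.45, edgeR adjusted p = 0.0306), as it was without E14 at 48 hr (-0.55, edgeR adjusted p = 0.0488). The genotypes in mESCs did not overlap, yet the log2 fold change of -0.16 (standard error 0.07) had an edgeR adjusted p of 0.207. An antisense gene overlaps 511 bases of its exons, and as no strand setting is given for the counting, reads from both genes there cannot be told apart.

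Ier3 (ENSMUSG00000003541, chromosome 17, 35821684 to 35822923), an immediate early response gene linked to cell survival, fell and then rose. It was at 4.64, 5.09 and 7.20 CPM in IκBα-WT clones 1 to 3 and at 6.02, 8.07 and 5.29 CPM in IκBα-KO clones 1 to 3. It then ranged from 1.75 to 2.98 CPM at 48 hr (median 1.94) and from 5.09 to 17.9 CPM at 96 hr (median 9.11). All libraries at 48 hr were below all others, and at 96 hr D4 and E2 were the highest with 17.9 and 12.4 CPM. Ier3 changed by -1.46 on the log2 scale from mESCs to 48 hr (standard error 0.27, edgeR adjusted p = 0.000456) and by 2.18 from 48 hr to 96 hr (standard error 0.27, edgeR adjusted p = 4.4e-05), and both calls held with each library left out in turn. The genotypes in mESCs overlapped (0.19, edgeR adjusted p = 0.665). Over the whole interval it was 0.72 (standard error 0.26, edgeR adjusted p = 0.0321), with the groups overlapping, and this call was lost without WT clone 1, WT clone 2, KO clone 3, or D4 or E2 at 96 hr (edgeR adjusted p of 0.0583 to 0.113) and with either genotype alone as the mESC reference (edgeR adjusted p = 0.0815 for IκBα-WT and 0.163 for IκBα-KO).

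**Figure D3:**
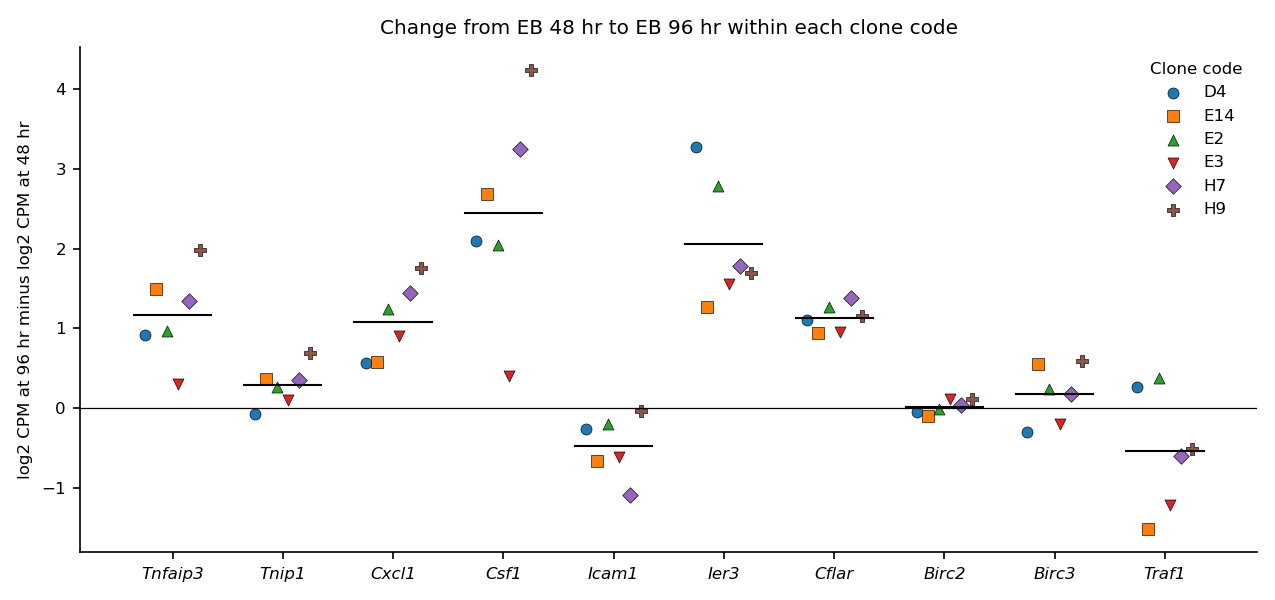
Change in log2 CPM from EB 48 hr to EB 96 hr within each of the 6 clone codes (vertical axis; prior count 2), with 1 symbol per code and a black line at the mean. All 6 codes lie above 0 for Tnfaip3, Cxcl1, Csf1, Ier3 and Cflar, and all 6 lie below 0 for Icam1.

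Cflar (ENSMUSG00000026031, chromosome 1, 58711508 to 58758884) encodes c-FLIP, an inhibitor of caspase-8 at death receptors, and was the 1 gene of the 10 called between genotypes in mESCs. It had 183, 255 and 270 counts in IκBα-WT clones 1 to 3 and 133, 173 and 109 counts in IκBα-KO clones 1 to 3, or 7.83 ± 1.43 against 3.71 ± 0.659 CPM (SD, n = 3 each), with no overlap. The log2 fold change was -1.08 (standard error 0.20, edgeR adjusted p = 0.0246). Primed pluripotency markers also differed between these libraries, with 4 of 5 called lower and summed levels of 632 to 1001 CPM in IκBα-WT and 378 to 452 CPM in IκBα-KO clones, and their part in the result was not tested. The call for Cflar was lost without WT clone 2, WT clone 3, KO clone 1 or KO clone 3 (edgeR adjusted p of 0.0685 to 0.146), and the edgeR adjusted p was 0.537 where all 18 libraries shared 1 estimate of the spread. That fit called 1 of 25318 genes between genotypes, and the targeted gene Nfkbia was not called there either (edgeR adjusted p = 0.333). In the EBs, D4, E14, E2, E3, H7 and H9 had 3.88, 11.6, 3.40, 3.80, 7.26 and 9.36 CPM at 48 hr and 8.38, 22.3, 8.26, 7.40, 19.0 and 20.99 CPM at 96 hr. E14, H9 and H7 were the 3 highest codes at both times, and the rise within a code was of similar size in all 6, from 0.94 to 1.38 in log2 CPM (mean 1.13 ± 0.175 SD). Between mESCs and 48 hr Cflar changed by 0.19 on the log2 scale (standard error 0.38, edgeR adjusted p = 0.767). In the unpaired fit the change from 48 hr to 96 hr was 1.13 (standard error 0.38, edgeR adjusted p = 0.0353) and that from mESCs to 96 hr was 1.32 (standard error 0.39, edgeR adjusted p = 0.00997). With the clone code as a block, the first of these had an edgeR adjusted p of 0.00014. In the unpaired fit it was lost when D4, E2 or E3 at 48 hr or E14, H7 or H9 at 96 hr was left out (edgeR adjusted p of 0.0669 to 0.0840), and the change from mESCs to 96 hr with the 3 IκBα-WT libraries alone as the reference (log2 fold change 0.88, edgeR adjusted p = 0.159).

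The other death regulators held steady or fell. Birc2 (ENSMUSG00000057367, chromosome 9, 7818227 to 7837064) and Birc3 (ENSMUSG00000032000, chromosome 9, 7848699 to 7873186) lie next to each other and encode the ubiquitin ligases that join TNF receptor complexes and keep caspase-8 in check. Birc2 was at 62.1, 72.0 and 67.9 CPM in IκBα-WT clones 1 to 3, 63.3, 38.6 and 59.9 CPM in IκBα-KO clones 1 to 3, 33.6 to 62.8 CPM at 48 hr (median 57.0) and 36.2 to 65.9 CPM at 96 hr (median 55.1). The lowest library of each EB stage was E3 and the lowest mESC library was KO clone 2, while the stages overlapped. Its log2 fold changes were -0.16 from mESCs to 48 hr, 0.01 from 48 hr to 96 hr and -0.15 from mESCs to 96 hr (standard errors of 0.16 each, edgeR adjusted p of 0.525, 0.965 and 0.507), and within codes it moved by -0.10 to 0.11 in log2 CPM. Birc3 was at 5.76, 7.45 and 6.31 CPM in IκBα-WT clones 1 to 3, 7.37, 5.86 and 5.91 CPM in IκBα-KO clones 1 to 3, 3.59 to 7.48 CPM at 48 hr (median 4.25) and 3.75 to 7.29 CPM at 96 hr (median 5.49), with all groups overlapping. It was not called in any comparison (edgeR adjusted p of 0.944 between genotypes and 0.149, 0.601 and 0.340 in the 3 stage comparisons), except from mESCs to 48 hr without D4 at 48 hr (log2 fold change -0.56, edgeR adjusted p = 0.0274). Traf1 (ENSMUSG00000026875, chromosome 2, 34941750 to 34961772), an adaptor that recruits these ligases, had few counts. It had 30, 30 and 26 counts in IκBα-WT clones 1 to 3, 30, 35 and 33 in IκBα-KO clones 1 to 3, and 10 to 21 at 48 hr and 8 to 23 at 96 hr. Both EB stages lay below all mESC libraries in CPM, and the log2 fold change was -1.29 from mESCs to 96 hr (standard error 0.28, edgeR adjusted p = 0.00114). From mESCs to 48 hr it was -0.76 (standard error 0.28, edgeR adjusted p = 0.0469), and this call held without E14 or H7 at 48 hr and was lost without any other of the 12 libraries compared (edgeR adjusted p of 0.0547 to 0.0977) or with either genotype alone as the mESC reference (edgeR adjusted p = 0.117 for IκBα-WT and 0.182 for IκBα-KO). From 48 hr to 96 hr it was -0.53 (standard error 0.29, edgeR adjusted p = 0.172), and it passed without D4 at 96 hr (edgeR adjusted p = 0.0398).

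In the libraries where Birc2 was lowest, the genes around it were low as well. In the 10 Mb window that holds Birc2 and Birc3, the median difference of its 17 genes (Birc2 and Birc3 included) from the IκBα-WT mean was -0.42 in log2 CPM in KO clone 2, and in E3 the median difference from the stage mean was -0.51 at 48 hr and -0.49 at 96 hr. Birc2 was at -0.80, -0.66 and -0.57 in these 3 libraries. Icam1 lies in another window of chromosome 9 whose 76 genes had medians of -0.38, -0.40 and -0.35 there, and Icam1 was at -0.12, 0.56 and 0.42. In the other 15 libraries the medians of both windows lay between -0.12 and 0.29. With an offset for each window, the log2 fold change of Birc2 between genotypes went from -0.32 to -0.14 (edgeR adjusted p = 0.337 and 0.449) and that of Icam1 from -0.16 to -0.01 (edgeR adjusted p = 0.207 and 0.971). Icam1 was however at -0.20 and -0.16 in KO clones 1 and 3, where its window was at -0.01 and -0.07. Without KO clone 2 and with no offset, Icam1 had a log2 fold change of -0.18 (edgeR adjusted p = 0.0605) and Birc2 one of -0.12 (edgeR adjusted p = 0.254). The part of the windows in these values was not tested beyond the offset. Without KO clone 2 and both E3 libraries, a choice made after seeing the data, the counts of called genes among the 10 in the 3 stage comparisons were 3, 6 and 7, as with all libraries. Over all genes the calls were 7561, 8154 and 11611 of 24445 tested, against 7053, 7019 and 10894 of 25318 with all libraries.

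**Figure D4:**
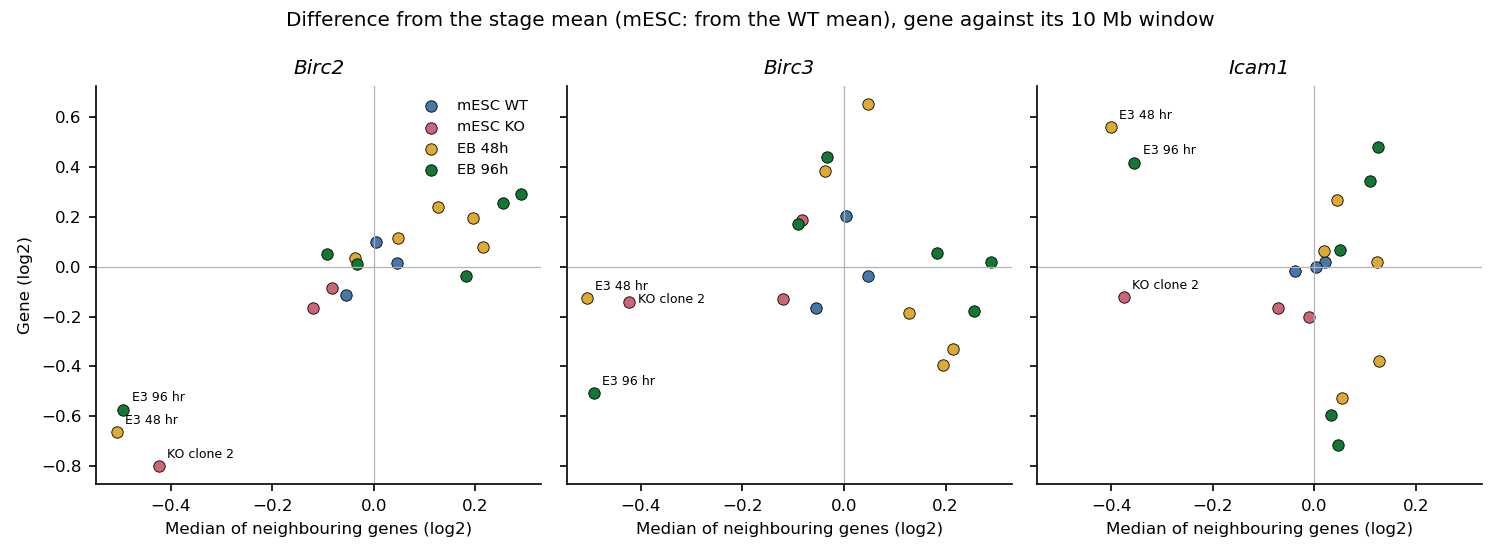
Difference of Birc2, Birc3 and Icam1 (vertical axis, log2 CPM) against the median difference of the genes in the same 10 Mb window (horizontal axis), with 1 point per library. Differences are from the IκBα-WT mean for mESCs and from the stage mean for EBs; the 3 libraries to the left of -0.3 are named, and in these Birc2 is lowest while Icam1 of both E3 libraries is above 0.

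The rest of the pathway was read from lists of other NF-κB targets, Rel factors, IκB proteins and upstream signalling genes. Between genotypes in mESCs, 1 of 24 other targets tested was higher and 1 lower, and among the Rel factors 0 of 5 were called by edgeR (1 at an unadjusted p under 0.05, 0 by DESeq2). Vegfc, a lymphatic growth factor, had a log2 fold change of 1.02 (edgeR adjusted p = 0.0478) and Ccnd1, which encodes cyclin D1, one of -0.40 (edgeR adjusted p = 0.0335). Of the 26 upstream genes tested 3 were higher and 1 lower in IκBα-KO mESCs, and of the IκB proteins Nfkbia was lower and Bcl3 higher. Over all genes tested, 3.09% were higher and 1.69% lower between genotypes. These genotype counts depend on single libraries, since 0 other targets were called by edgeR without any 1 of WT clones 1 to 3, KO clone 1 or KO clone 3, and 6 were called without KO clone 2. The calls over all genes moved too, with 318, 0 and 34 without WT clones 1, 2 and 3. They were 381, 3736 and 264 without KO clones 1, 2 and 3, against 1046 with all libraries. From mESCs to 48 hr, 8 of 27 other targets were higher and 5 lower, beside 14.9% and 13% of all genes. Irf1, which encodes a transcription factor of the interferon response, rose by 1.25 on the log2 scale (standard error 0.19, edgeR adjusted p = 5.72e-05), and Junb, which encodes an AP-1 subunit, changed by -2.12 (standard error 0.24, edgeR adjusted p = 4e-06). Among the Rel factors Rela was higher (0.59, edgeR adjusted p = 0.000368) and Relb lower (-0.80, edgeR adjusted p = 0.00818), and among the IκB proteins Nfkbib was higher (0.47) and Bcl3 lower (-3.35, edgeR adjusted p = 1.33e-06).

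From 48 hr to 96 hr the pathway lists had more genes called higher than lower. Of 27 other targets 11 were higher and 2 lower, beside 13.9% and 13.8% of all genes. Cd40, a receptor of the TNF family, changed by 3.18 on the log2 scale (standard error 0.64, edgeR adjusted p = 0.00180) and Junb by 1.90 (standard error 0.24, edgeR adjusted p = 4.78e-05). Nfkbid, an IκB family gene kept in this list, changed by -0.78 (standard error 0.15, edgeR adjusted p = 0.000996). Sod2, the mitochondrial superoxide dismutase, changed by -0.72 (standard error 0.12, edgeR adjusted p = 0.000438). Of the 5 Rel factors 3 were higher and 0 lower (0 at an unadjusted p under 0.05 and 0 by DESeq2), and the count of Rel factors called was 1 without H9 at 96 hr and 5 without E3 at 96 hr. Nfkb2, the gene of p100, changed by 1.69 on the log2 scale (standard error 0.28, edgeR adjusted p = 0.000396) and Rel by 0.78 (standard error 0.26, edgeR adjusted p = 0.0331). In the list of 5 IκB proteins, which does not hold Nfkbid, Nfkbie and Nfkbiz were higher (1.05 and 0.70, edgeR adjusted p = 0.0184 and 0.0232). In that list 0 were lower (0 at an unadjusted p under 0.05 and 0 by DESeq2), and 1 was called without E2 at 48 hr. Of 26 upstream genes 7 were higher and 2 lower, with Ltbr, the lymphotoxin beta receptor, at 1.42 and Tnfrsf1a, the TNF receptor, at 1.19 (edgeR adjusted p = 0.00235 and 0.00802), and 14 were called without E3 at 96 hr. Over the whole interval 11 of 27 other targets were higher and 5 lower, 2 of 5 Rel factors higher and 0 lower (0 at an unadjusted p under 0.05 in edgeR and 0 by DESeq2), and 9 of 26 upstream genes higher and 4 lower, beside 22.7% and 20.3% of all genes. Exons of Irf1, Junb, Ccnd1, Nfkb2, Nfkbib and Bcl3 overlap those of antisense genes.

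**Figure D5:**
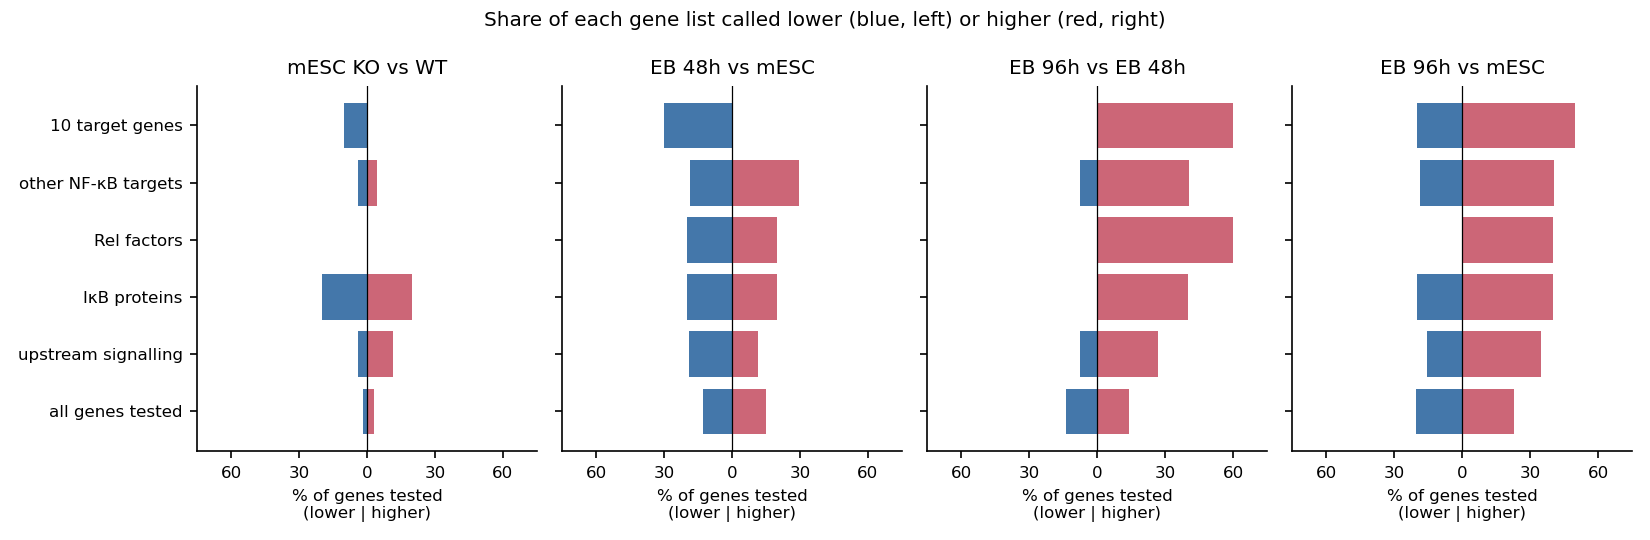
Share of the genes tested in each list that were called higher (red, to the right) or lower (blue, to the left) at an adjusted p under 0.05 in each comparison, with all genes tested in the bottom row. From 48 hr to 96 hr 6 of the 10 genes and 3 of the 5 Rel factors are called higher, against 13.9% of all genes.

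The promoters with a κB match, shown above, were set beside the change from 48 hr to 96 hr. Of the 5 genes with a match 5 were called higher in that comparison, and of the 5 without a match 1 was, which was Cflar. Nfkbia, which is not among these genes, also has a match and was not called. As the gene edited in the IκBα-KO clones, which each stage mixes with IκBα-WT clones, it cannot be read here like the other targets. The calls for Cxcl1, Tnip1 and Cflar were each lost when certain single libraries were left out. Among all genes with a promoter sequence, 22.2% of 1801 with a match and 16.5% of 13026 without were called higher. From mESCs to 48 hr, 1 of the 5 genes with a match (Ier3) and 2 of the 5 without (Icam1 and Traf1) were called lower, beside 16.2% and 14.9% of all such genes. This reading was made after the values were seen and was not tested.

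Across the 18 libraries, each gene was also set beside the 49 genes of the pathway lists with a mean count of at least 50, as a description in which stage, clone and library are shared. Icam1 was most like Sod2 (Pearson r = 0.95 in log2 CPM), and Traf1 was as well (r = 0.80). Tnfaip3 was most like Relt, a receptor of the TNF family (r = 0.93), as was Tnip1 (r = 0.70). Cflar and Csf1 were both most like Cd40 (r = 0.84 and 0.86). Ier3 was most like Tradd (r = 0.73), Cxcl1 like Relb (r = 0.72), Birc2 like Tab2 (r = 0.67) and Birc3 like Cyld (r = 0.67).

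Markers of other cell types moved with the stages and varied among the EBs at 96 hr. The 8 streak and mesoderm markers were all called higher at 96 hr than at 48 hr, and Mesp1, a regulator of early mesoderm, changed by 7.51 on the log2 scale (standard error 1.57, edgeR adjusted p = 0.00232). Summed over the list, they ranged from 9.95 to 82.0 CPM at 48 hr and from 19.8 to 1077 CPM at 96 hr. Blood and endothelial markers summed to 36.5 to 520 CPM at 96 hr with 5 of 7 called higher, primitive endoderm markers to 3.54 to 189 CPM with 2 of 5 called higher, and fibroblast markers to 16.9 to 108 CPM with 2 of 7 called higher. E14 alone held the top of these 3 ranges, since the other 5 libraries at 96 hr reached at most 86.4, 38.5 and 48.3 CPM, and blood and endothelial markers had summed to 50.7 to 122.6 CPM at 48 hr. E14 was also the highest library at 96 hr for Tnfaip3 and Cflar and the second highest for Csf1, and without it 5 of the 10 genes were called higher from 48 hr to 96 hr, Cflar being lost. Over all genes, 3083 of 25053 were called higher without E14 at 96 hr, against 3529 of 25318 with all libraries. Immune cell markers, which matter for Cxcl1, Csf1 and Icam1, summed to 7.66 to 12.9 CPM at 48 hr and 5.66 to 13.0 CPM at 96 hr, and of the 7 tested 2 were called lower and 0 higher from 48 hr to 96 hr by edgeR (0 higher at an unadjusted p under 0.05, and 0 by DESeq2). Ptprc, which marks all leukocytes, had 23 counts over the 18 libraries, and Lyz2 was at 0 in all 18. Cd68 and Cd3e of the same list had 4556 and 977 counts, and the mean of Cd68 was 6.89 CPM at 48 hr and 7.74 CPM at 96 hr. The part of the other markers in the changes of the 10 genes was not tested.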

How the data were processed

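Per the labels and the paper's methods, the authors trimmed reads with Trim Galore 0.6.6, aligned them to GRCm38 with STAR 2.7.8 and used featureCounts (Subread 2.0.1) to count the uniquely mapped reads over exons. The values used are the deposited whole-number counts of 55487 genes in 18 libraries, and the deposited variance-stabilized values were not used. A gene was kept if its counts summed to 10 or more in the libraries tested. In R 4.3.3, edgeR 4.0.16 (TMM scaling, robust quasi-likelihood test, Benjamini-Hochberg adjustment over all genes tested) was fitted to the 6 mESC libraries for the genotypes and to all 18 for the stages. Standard errors follow from the size of each log2 fold change and its F statistic (size over root F). A prior count of 2 went into log2 CPM.

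The 10 genes and the gene lists were chosen with earlier results of these data known. Named genes of other lists are the 2 largest increases and 2 largest decreases called, with a mean count of at least 50, or fewer of them. Positions come from GENCODE annotation of GRCm38. Stages were tested without pairing, although same-coded EB libraries deviated together from their stage means (r = 0.40 to 0.73), and mESC replicate numbers did not pair (r = -0.12 to -0.01). No 2 libraries were duplicates. Clones are the replicates, so the p-values of the genotype comparison measure the spread between clones of a genotype. In the stage fits each stage mixes both genotypes without a term for them, so the spread there also holds any difference between genotypes. Libraries of the same code entered those fits as if independent. Alternatives were DESeq2 1.42.0 (size factors and Wald test), other filters, fold change thresholds, references and fits, blocks, window offsets and leaving out each library. Simulated counts were used to check the tests, and there DESeq2 made more calls of unchanged genes than edgeR did. They were drawn as independent libraries, with no clone shared between stages and no mixed genotypes within a stage, so they do not check the stage fits for these features.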

Additional observations from a re-analysis of the deposited data

Results flagged for a closer look

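In the groups of 6 EB libraries, 22 sets of values (the 10 genes and Nfkbia at 48 hr and at 96 hr) were examined for a library set far apart from the others by Dixon's criterion, which flags about 1 in 20 groups by chance. At 48 hr, Birc2 was at 33.6 CPM in E3, where the other 5 libraries ranged from 54.6 to 62.8 CPM. The neighbouring genes of E3 were low as well, with a window median of -0.51 relative to the stage mean. At 48 hr, Tnip1 was at 62.7 CPM in D4, where the other 5 libraries ranged from 41 to 47.6 CPM.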

How the results depend on the processing

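The number of the 10 genes called in mESCs between genotypes was 1, and 2 with the DESeq2 Wald test, 0 in a fit on all 18 libraries and 0 to 2 with 1 library left out. With the replicate block it was 1, although replicate numbers are no pairing here. From mESCs to 48 hr the count was 3 (2 to 4 with 1 library left out), from 48 hr to 96 hr 6 (3 to 6 with 1 library left out, 7 with the clone code as a block, which added Icam1 and changed no other call), and from mESCs to 96 hr 7 (5 to 7 with 1 library left out, 4 with the 3 IκBα-WT libraries as the reference). The median change of the 10 genes from 48 hr to 96 hr in log2 CPM was 0.68, and 0.71 with a prior count of 0.5. Over all genes, 1046 were called between genotypes, against 2133 with the DESeq2 Wald test, 631 with the replicate block, 372 with a fold change over 1 on the log2 scale required, 1 in the fit on 18 libraries and 0 (without WT clone 2) to 3736 (without KO clone 2) with 1 library left out. That threshold reduced the calls over all genes to 2422, 3003 and 5278 in the 3 stage comparisons, from 7053, 7019 and 10894. Signs turned in 19 of 821 refits of single genes, none of them for a called change, and the cause was not tested. Between genotypes these were Tnfaip3 (-0.18 to 0.20 with 1 library left out, turned without WT clone 3 or KO clone 1, 0.00074 with the replicate block, 0.0070 with the window offset), Cxcl1 (-1.30 to 0.051, turned without KO clone 1), Birc3 (-0.15 to 0.076, turned in the absence of WT clone 2 and of either KO clone 2 or 3, and 0.18 with the window offset) and Tnip1 (-0.155 to 0.027, turned without KO clone 3). From mESCs to 48 hr they were Cflar (-0.29 with the IκBα-WT reference, -0.056 without E14 and up to 0.33 without another library), Tnip1 (-0.0082 without D4, up to 0.14) and Nfkbia (0.044 with the IκBα-KO reference). Birc2 was at -0.094 to 0.11 from 48 hr to 96 hr with 1 library left out, turned without E3 at 48 hr, H7 at 96 hr or H9 at 96 hr, and at 0.038 from mESCs to 96 hr with the IκBα-KO reference, where Nfkbia was at 0.41. Cxcl1, Traf1 and Csf1 had the fewest counts at 48 hr (4, 97 and 104 over the 6 libraries).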

Other observations

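The genotype of each EB library is not given in the sources used here, and these are values by clone code with no comparison. At 96 hr the streak and mesoderm markers summed to 26.0, 1018, 27.4, 19.8, 710 and 1077 CPM in D4, E14, E2, E3, H7 and H9. In the same order, Cflar was at 8.38, 22.3, 8.26, 7.40, 19.0 and 20.99 CPM. Csf1 was at 1.07, 7.16, 1.44, 1.52, 3.49 and 9.49 CPM, and Tnfaip3 at 5.90, 11.04, 5.41, 5.06, 7.23 and 9.97 CPM. Ier3 had another order, at 17.9, 5.09, 12.4, 8.84, 6.19 and 9.37 CPM, and Icam1 was at 20.3, 8.86, 18.5, 19.5, 9.61 and 15.3 CPM. At 48 hr the streak and mesoderm markers summed to at most 82.0 CPM. In the same order of codes, Cflar was then at 3.88, 11.6, 3.40, 3.80, 7.26 and 9.36 CPM. Csf1 was at 0.204, 1.06, 0.303, 1.14, 0.313 and 0.444 CPM, and Tnfaip3 at 3.10, 3.90, 2.73, 4.09, 2.82 and 2.48 CPM. The primed markers at 48 hr summed to 859, 2407, 1014, 916, 2199 and 2609 CPM in D4, E14, E2, E3, H7 and H9. The pluripotency markers summed to 2386, 1521, 2049, 2067, 1696 and 1530 CPM. The Rel factors summed to 106, 192, 106, 81.0, 133 and 164 CPM at 96 hr.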
